A study of Mus musculus with 6 samples.

Results

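The G2/M and mitotic genes described here are 40 genes chosen by symbol for their known work in the entry into mitosis, the spindle, the spindle checkpoint and cell division. Each was read from the 1 array row annotated with its symbol alone, taking the brightest row where there were several. Of the 40, 38 had such a row, and no member had more than 1. Ccnb1 (cyclin B1) matched no row, and the only row of Ccnf (cyclin F) also carried a microRNA symbol, so neither was analysed. All 38 lay above the level filter, with mean log2 levels from 7.79 to 12.001 against a filter of 6.15, and were tested among 12212 genes in all.

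The cells were BV2, an immortalised mouse microglial line labelled wild type, kept in serum-containing medium. The group Tel+GW+LPS received telmisartan, GW9662 and lipopolysaccharide (LPS), and the group Tel+LPS received telmisartan and LPS, with 3 samples and 3 arrays each. Both groups therefore share telmisartan and LPS, with 2 h of drug before 1 h of LPS, 3 h in all, and groups without these agents were not analysed here. Telmisartan blocks the angiotensin II receptor and partly activates the nuclear receptor PPARG, GW9662 binds and inactivates PPARG, and LPS from bacterial walls activates TLR4. No doses are stated in the labels. The labels call the samples independent without naming separate cultures, so the p-values reflect only how far these samples scattered, and that scatter can be technical. Of 16 microglia and macrophage markers, 13 were above the level filter, while P2ry12 and Tmem119, markers of resting microglia in brain, lay below it at 5.82 and 6.06.

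Mitosis is started by CDK1 bound to B-type cyclins, which CDC25 phosphatases switch on, and is driven on by the Polo-like and Aurora kinases. The spindle checkpoint holds back the anaphase-promoting complex (APC/C) and its activator CDC20 until every kinetochore is attached to microtubules. The messenger RNAs of these genes build up as dividing cells pass through G2, when FOXM1, B-MYB and the MuvB complex switch them on, and they are kept low in resting cells by the DREAM complex. In bulk RNA, a smaller share of cells in G2 or mitosis and less RNA in each such cell cannot be told apart.

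With GW9662, none of the 38 mitotic genes rose or fell past the threshold. In limma, 0 of 38 had an adjusted p under 0.05, where 0.0409% of all genes tested did (5 genes, 3 higher and 2 lower, or 10, 4 higher and 6 lower, under either rescaling named below), and 1 member, Cdk1, had an unadjusted p under 0.05, where 4.45% of all genes did. The largest difference downward was that of Cdk1, -0.18 ± 0.08 on the log2 scale (Tel+GW+LPS minus Tel+LPS, with its standard error, SE), or 1.13-fold lower. The largest upward was that of Cdc25b, 0.10 ± 0.06. Adjusted p-values of the members ran from 0.994 upward.

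The intervals of the differences were narrow. All 38 of the 95% intervals lay inside a 1.5-fold change in either direction, as they did for 98.7% of all genes tested, and 35 of 38 lay inside a 1.25-fold change, against 74.1% of all genes. The exceptions to the narrower bound were Cdk1, Plk4 and Spc25. Inside 1.25-fold lay 87.2% of the tested G1/S and replication genes and 72.9% of the further spindle, kinetochore and cytokinesis genes (lists below). Levels were not matched in these comparisons. The intervals are for single genes and are not adjusted for their number. In all 38 members the difference between group means was smaller than the wider of the 2 ranges within a group, which held for 94.9% of all genes.

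**Figure D1:**
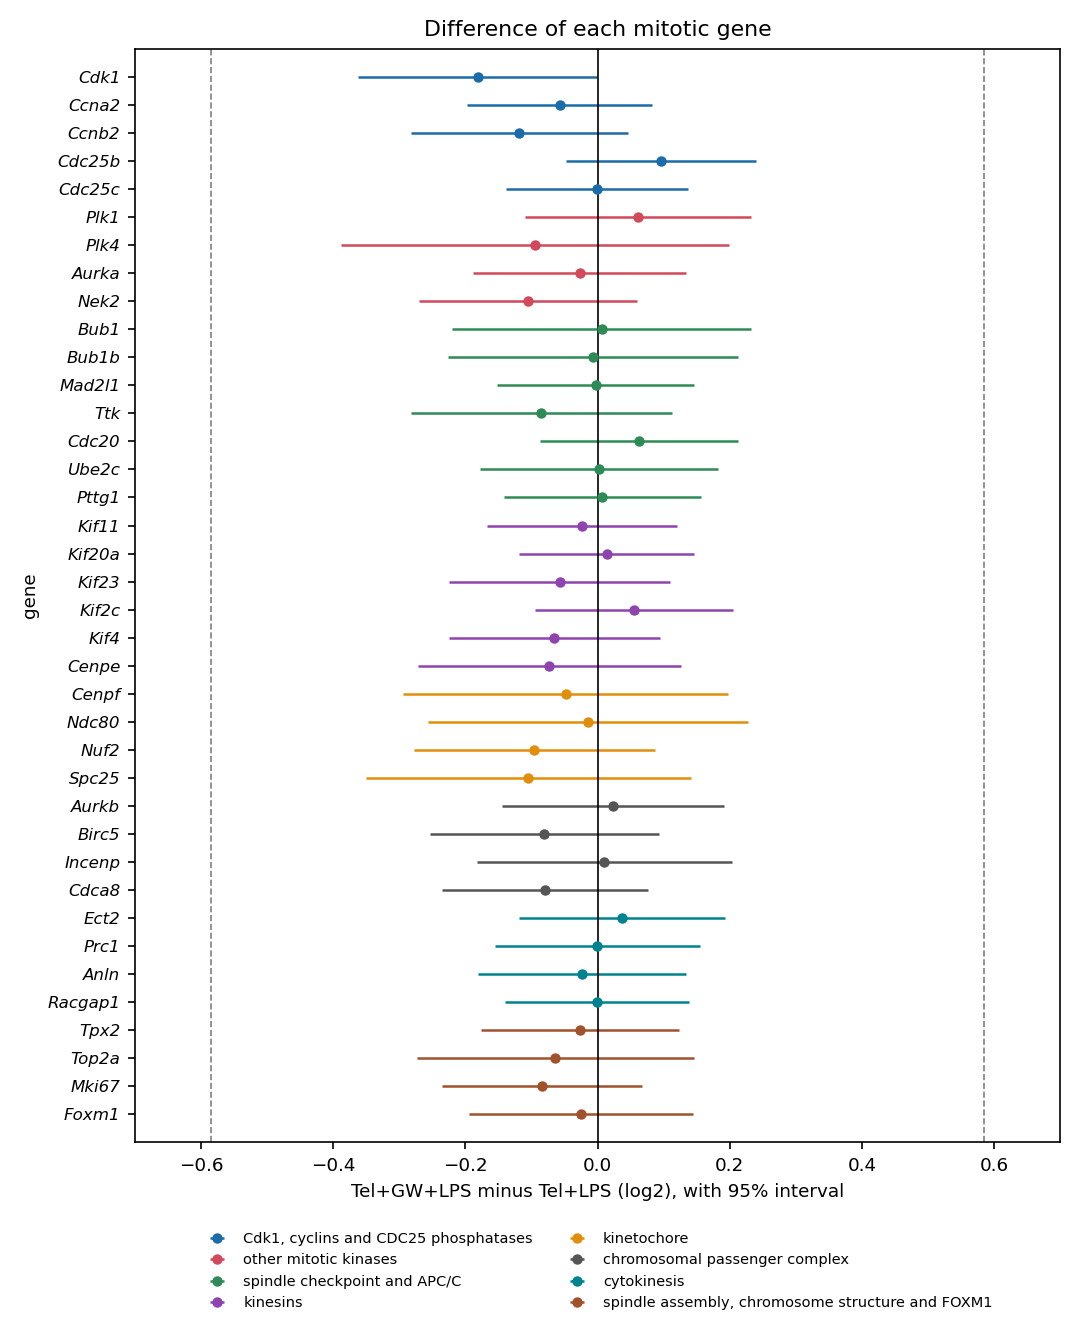
Difference of each of the 38 mitotic genes on the log2 scale, Tel+GW+LPS minus Tel+LPS, with its 95% interval (bars), 3 arrays a group. Colours give the role, and the dashed lines mark a 1.5-fold change, which no interval reaches.

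Most differences had a negative sign, and so had those of most genes. Of the 38 members, 27 were negative, and their median was -0.02 (mean -0.03). Over all genes tested the median was -0.02 and 58.8% were negative. With each array centred on its median the count was 21 of 38 negative, and with quantile normalization repeated over the genes tested it was 18 of 38, with a median of 0.0051. The median over all genes tested was -0.0039 and 0.0014 under these rescalings. Cdc25c, Bub1b, Mad2l1, Ndc80, Prc1 and Racgap1 took the opposite sign under both rescalings, and Aurka, Kif11 and Anln under the second. Groups that did not overlap were seen downward in Ccnb2, where 5.36% of all genes tested separated downward, and upward in Cdc25b, where 4.01% separated upward.

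Many of the members share letters in their promoters, as is known of G2/M genes, the kind of genes the list was chosen to hold. The cell cycle homology region (CHR), written TTTGAA on either strand, is the site through which MuvB complexes are known to act on G2/M genes, and CCAAT, on either strand, is the box bound by the factor NF-Y. RefSeq promoters on GRCm38.p6, from 250 bases before to 50 after the annotated start, were matched by symbol for 33 of the 40 members, in 35 promoters. The CHR letters were in 23 of the 33 genes (69.7%), and in 71.4% of their promoters, against 17.9% of all 32851 promoters in the table and 12.1% of those of the genes tested. Within 50 bases of the start, 65.7% of the members' promoters held them, against 4.94% of all promoters. CCAAT was in 77.1% of the members' promoters and in 37.4% of all. The variant TTCGAA was in Bub1, Bub1b, Cdc25b and Top2a, 11.4% of the members' promoters against 1.56% of all. A CHR and a CCAAT box that meet can share an end base.

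The 6 stretches below run from 100 bases before to 30 after the start, 5′ to 3′ on the gene's strand, with both motifs in capitals (TTTGAA or TTCAAA, and CCAAT or ATTGG). They are shown because 5 carry a CHR close to the start beside spaced CCAAT boxes, while Nek2 carries only the boxes. They lie at chr10:69352883-69353012 on the minus strand for Cdk1, chr9:70421525-70421654 on the minus strand for Ccnb2 and chr4:118437314-118437443 on the minus strand for Cdc20. Those of the others are chr9:83834589-83834718 on the plus strand for Ttk, chr11:99024160-99024289 on the minus strand for Top2a and chr1:191821373-191821502 on the plus strand for Nek2.
Cdk1: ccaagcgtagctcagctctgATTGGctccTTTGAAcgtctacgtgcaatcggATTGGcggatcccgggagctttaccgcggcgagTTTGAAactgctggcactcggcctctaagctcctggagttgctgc
Ccnb2: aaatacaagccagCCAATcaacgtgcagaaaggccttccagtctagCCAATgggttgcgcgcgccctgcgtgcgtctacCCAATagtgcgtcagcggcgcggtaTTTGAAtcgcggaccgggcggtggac
Cdc20: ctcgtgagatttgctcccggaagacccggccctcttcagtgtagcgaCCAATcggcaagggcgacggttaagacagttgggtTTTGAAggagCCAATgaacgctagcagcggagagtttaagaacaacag
Ttk: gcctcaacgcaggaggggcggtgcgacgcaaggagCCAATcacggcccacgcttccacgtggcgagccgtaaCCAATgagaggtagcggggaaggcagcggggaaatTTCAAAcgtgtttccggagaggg
Top2a: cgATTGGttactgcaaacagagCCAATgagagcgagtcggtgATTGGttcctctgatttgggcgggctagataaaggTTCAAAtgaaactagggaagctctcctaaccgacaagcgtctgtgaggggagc
Nek2: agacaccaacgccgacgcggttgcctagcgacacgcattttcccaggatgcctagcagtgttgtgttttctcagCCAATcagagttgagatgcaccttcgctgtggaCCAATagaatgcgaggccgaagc
A match describes the letters and shows no binding. Birc5, Mad2l1, Nuf2, Plk4, Pttg1, Cenpe, Nek2 and Ccnb1 had neither TTTGAA nor TTCGAA in this window. The 22 tested members with TTTGAA had a median difference of -0.03 and the 9 matched without it a median of -0.07, with ranges of -0.18 to 0.06 and -0.10 to 0.10.

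**Figure D2:**
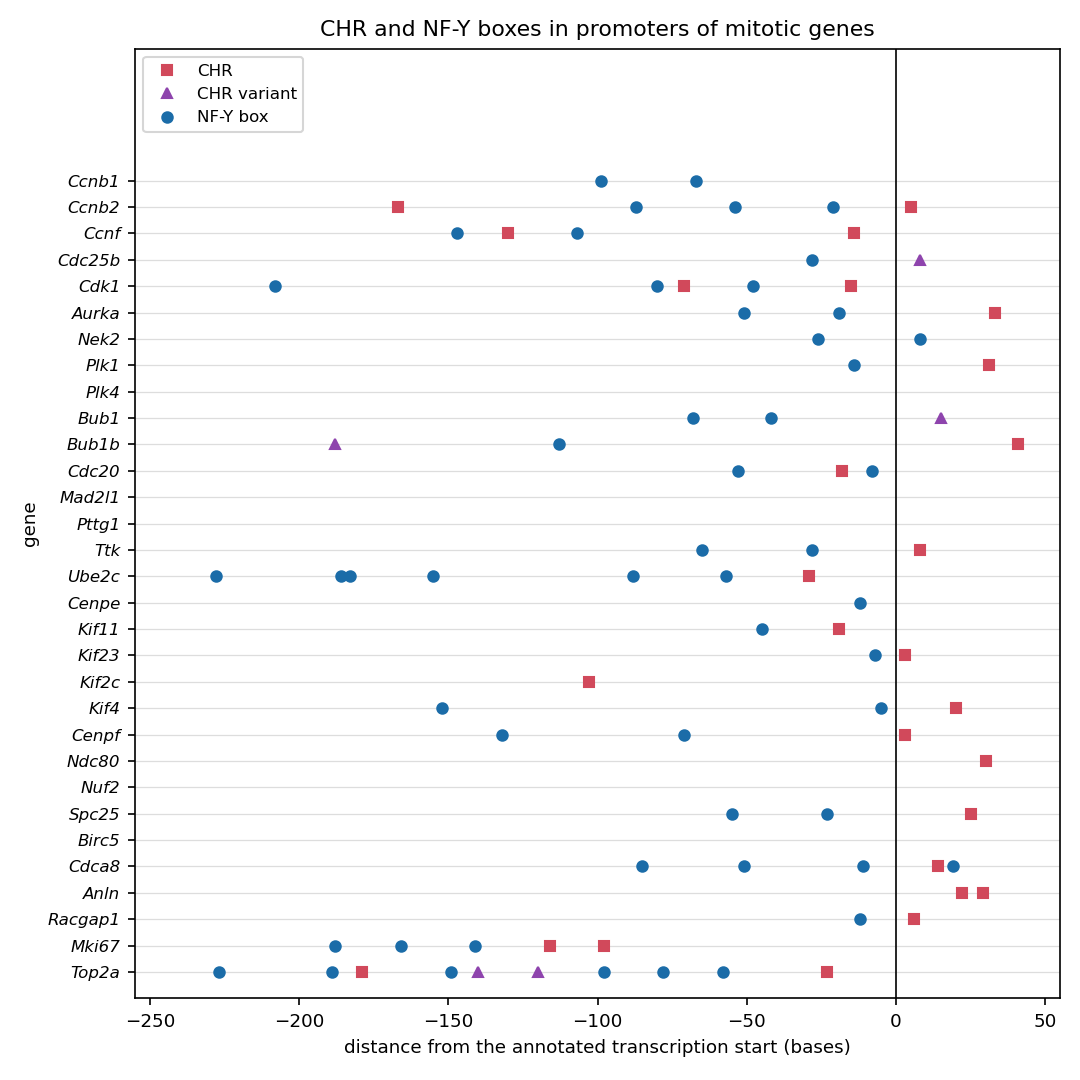
Position of the CHR (red squares), its variant (purple triangles) and the CCAAT box bound by NF-Y (blue circles) in the promoters of the members with 1 matched promoter, as distance in bases from the annotated start to the motif's first base. Most red squares sit within 50 bases of the start, and the circles mostly before it.

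Of the genes of CDK1, its cyclins and the CDC25 phosphatases, 5 were tested and 4 were negative (3 of 5 under either rescaling). Cdk1 and Ccnb2 had the largest negative differences of the 38 members with all 6 arrays weighted equally. The place of Ccnb2 depended on single arrays. Plk4 was lowest, at -0.21, without replicate 2 of Tel+LPS, and Cenpe among others was below Ccnb2 there. Without replicate 2 of Tel+GW+LPS, Spc25, Plk4, Nek2, Nuf2 and Ttk were below Ccnb2. Without replicate 1 of Tel+GW+LPS, Ccnb2 was at -0.06, and Nek2 among others was lower. Cdk1 (probe set 17241692), the kinase that triggers mitosis, lay at 9.82, 10.02 and 9.85 on the Tel+GW+LPS arrays and at 10.06, 10.02 and 10.16 on the Tel+LPS arrays (log2 levels, replicates 1 to 3). Replicate 2 of Tel+GW+LPS lay just above the lowest Tel+LPS array, so the groups overlapped, and the other 2 arrays with GW9662 lay below all 3 without. The means were 9.90 ± 0.11 with GW9662 and 10.08 ± 0.08 without (SD, n = 3 each). The difference had an unadjusted p of 0.049 and an adjusted p of 0.994 in limma, with a 95% interval of -0.36 to -0.001. It ranged from -0.24 to -0.14 with 1 array left out. Without both arrays that stood apart (below) it was -0.20.

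Ccnb2, the gene of cyclin B2, lay at 11.03, 11.19 and 11.19 with GW9662, and at 11.22, 11.31 and 11.24 without. All 3 arrays with GW9662 were lower, replicate 1 most of all, and the difference of -0.12 ± 0.07 (adjusted p = 0.994 in limma) was -0.06 without that array. Cdc25b, a phosphatase that activates CDK1 at the onset of mitosis, lay at 9.01, 8.997 and 9.01 with GW9662 and at 8.96, 8.84 and 8.92 without. It was chosen after its values were seen, as the only member whose arrays with GW9662 were all higher, by 0.10 ± 0.06 (adjusted p = 0.994 in limma). Ccna2 (cyclin A2) and Cdc25c differed by -0.06 and -0.0011.

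Of the other mitotic kinases, 3 of 4 were negative (2 of 4 with quantile normalization repeated), each smaller in size than Cdk1 and Ccnb2. Plk1, the Polo-like kinase of centrosome maturation and spindle assembly, lay at 11.42, 11.30 and 11.41 with GW9662 and at 11.36, 11.39 and 11.20 without. Its lowest array was replicate 3 of Tel+LPS, and the difference of 0.06 ± 0.07 was 0.0038 without that array. Aurka, the Aurora kinase of the spindle poles, lay at 10.70, 10.66 and 10.65 with GW9662 and at 10.74, 10.76 and 10.58 without, a difference of -0.03 ± 0.07. Its arrays overlapped, and replicate 3 of Tel+LPS was again the lowest. Nek2, a kinase that parts the centrosomes, lay at 10.59, 10.72 and 10.53 with GW9662 and at 10.76, 10.66 and 10.72 without. Replicate 2 with GW9662 lay inside the range of the arrays without, and the difference was -0.10 ± 0.07. Plk4, the kinase of centriole duplication, had the widest range over the 6 arrays of all members, 0.43, and was picked out for that after its values were seen. It lay at 9.26, 9.57 and 9.25 with GW9662 and at 9.50, 9.21 and 9.64 without, high on replicate 2 with GW9662 and on replicates 1 and 3 without, for a difference of -0.09 ± 0.13.

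Spindle checkpoint and APC/C genes had differences on both sides of 0, with 3 of 7 negative (1 of 7 under either rescaling). The count was 2 of 7 without replicate 1 or 3 of Tel+GW+LPS and 5 of 7 without its replicate 2. It was 4 of 7 without replicate 2 of Tel+LPS and with array weights, and 5 of 7 without both arrays that stood apart (below). Ttk, the checkpoint kinase also known as MPS1, lay at 9.67, 9.84 and 9.61 with GW9662 and at 9.76, 9.70 and 9.91 without, a difference of -0.09 ± 0.09. Replicate 2 with GW9662 and replicate 3 without were the high arrays. Cdc20, the APC/C activator that the checkpoint restrains, lay at 11.26, 11.29 and 11.22 with GW9662 and at 11.22, 11.24 and 11.11 without. These ranges overlapped, and the difference of 0.06 ± 0.07 was 0.02 without replicate 3 of Tel+LPS, the lowest array. The checkpoint genes Bub1, Bub1b (BUBR1) and Mad2l1 (MAD2) differed by 0.006, -0.0064 and -0.0029. Ube2c, the ubiquitin-conjugating enzyme of the APC/C, and Pttg1, the separase inhibitor securin, differed by 0.0025 and 0.0071. Over the 7 genes the median was 0.0025 and the mean -0.0023, of opposite sign.

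Kinesins, the motors that build the spindle and move chromosomes, had 4 of 6 negative differences (3 of 6 with quantile normalization repeated). The count was 2 of 6 without replicate 3 of Tel+LPS and 5 of 6 with array weights. Kif4, a chromosome-bound motor that also limits microtubule overlap in the central spindle, lay at 9.58, 9.71 and 9.54 with GW9662 and at 9.67, 9.64 and 9.71 without, a difference of -0.07 ± 0.07. Kif2c (MCAK), which depolymerises microtubules at centromeres, lay at 10.71, 10.76 and 10.68 with GW9662 and at 10.74, 10.61 and 10.63 without, a difference of 0.06 ± 0.07. Both pairs of groups overlapped. Kif20a, a motor needed for cytokinesis, had the narrowest range of all members, 0.03 over the 6 arrays, and differed by 0.01 ± 0.06. Kif11 (Eg5), which pushes the spindle poles apart, differed by -0.02, Kif23 of centralspindlin by -0.06, and the kinetochore motor gene Cenpe by -0.07.

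Kinetochore genes had the widest median range over the arrays among the 8 roles. Nuf2, a subunit of the NDC80 complex that grips microtubules, lay at 10.22, 10.39 and 10.21 with GW9662 and at 10.34, 10.30 and 10.47 without, a difference of -0.10 ± 0.08. Spc25, another subunit, lay at 9.15, 9.42 and 9.04 with GW9662 and at 9.26, 9.24 and 9.43 without, a difference of -0.10 ± 0.11. In both genes replicate 2 with GW9662 and replicate 3 without were the high arrays of their groups, and the groups overlapped. Without replicate 2 of Tel+GW+LPS the difference of Spc25 was -0.21, and without its replicate 3 it was -0.02. Ndc80 itself differed by -0.01, with a range of 0.40 over the 6 arrays, and Cenpf by -0.05, with a range of 0.38. The median range of the 4 kinetochore genes was 0.39, beside 0.20 over all 38 members and 0.27 over all genes tested. All 4 differences were negative, but that of Ndc80 turned positive under both rescalings, and those of Ndc80 and Cenpf without replicate 3 of Tel+LPS.

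The chromosomal passenger complex corrects faulty attachments and then directs cytokinesis, and 2 of its 4 genes were negative, also under either rescaling. The count was 4 of 4 without replicate 2 of Tel+GW+LPS. It was 3 of 4 without replicate 1 or 3 of that group, without replicate 2 of Tel+LPS and with array weights. Its kinase gene Aurkb lay at 10.88, 11.04 and 11.04 with GW9662 and at 10.91, 10.93 and 11.04 without, a difference of 0.02 ± 0.07. Birc5 (survivin), which docks the complex on centromeres, lay at 9.16, 9.28 and 9.29 with GW9662 and at 9.26, 9.44 and 9.27 without, a difference of -0.08 ± 0.08. Cdca8 (borealin) lay at 9.41, 9.45 and 9.56 with GW9662 and at 9.52, 9.61 and 9.53 without, a difference of -0.08 ± 0.07. Birc5 and Cdca8 were highest on replicate 2 of Tel+LPS, Aurkb on its replicate 3, and the groups overlapped in each. Without replicate 2 of Tel+LPS, Birc5 differed by -0.02. Incenp, the scaffold of the complex, differed by 0.01.

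Cytokinesis genes were negative in 3 of 4 (1 of 4 with arrays centred, 0 of 4 with quantile normalization repeated), with a median of -0.0007 and a mean of 0.0029. Ect2, which activates the small GTPase RhoA at the division plane, lay at 11.23, 11.13 and 11.14 with GW9662 and at 11.20, 11.14 and 11.06 without, a difference of 0.04 ± 0.07. Anln, which encodes the contractile ring scaffold anillin, lay at 10.51, 10.52 and 10.46 with GW9662 and at 10.52, 10.44 and 10.61 without, a difference of -0.02 ± 0.07. Replicate 3 of Tel+LPS was the lowest array for Ect2 and the highest for Anln. Prc1, which bundles microtubules of the central spindle, and Racgap1, the partner of Kif23 in centralspindlin, differed by -0.0003 and -0.0011.

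The proliferation markers and the transcription factor FOXM1 did not pass either, and all 4 genes of this group were negative. The count was 2 of 4 without replicate 3 of Tel+GW+LPS. It was 3 of 4 without replicate 2 of Tel+GW+LPS, without replicate 3 of Tel+LPS and with array weights. Mki67, the gene of the Ki-67 antigen of cycling cells, lay at 11.94, 11.998 and 11.94 with GW9662 and at 12.05, 11.97 and 12.12 without, a difference of -0.08 ± 0.07 with a 95% interval of -0.24 to 0.07. Top2a, the topoisomerase that disentangles chromosomes, lay at 11.17, 11.31 and 11.05 with GW9662 and at 11.20, 11.15 and 11.37 without, a difference of -0.06 ± 0.09. In both genes the highest array was replicate 3 of Tel+LPS. Foxm1, which drives many of the genes above, lay at 8.89, 8.84 and 9.05 with GW9662 and at 8.92, 8.99 and 8.95 without, a difference of -0.03 ± 0.07 with a 95% interval of -0.20 to 0.14. Its highest and its lowest array were both among those with GW9662. Tpx2, which activates Aurora A on spindle microtubules, differed by -0.03.

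Arrays of the same group differed from each other in the members. Replicate 2 of Tel+GW+LPS and replicate 3 of Tel+LPS stood apart on the first principal component of all genes tested, which took up 42.8% of the variance. Their scores were 7.55 for the array with GW9662 and 14.6 for the one without, against -8.15 to -0.98 on the other 4. The same arrays were the highest for 24 of the 38 members (63.2%), where they were the highest for 43.1% of all genes tested, and the lowest for 7 members (18.4%), against 35.6% of all genes. The median deviation of the members from their own 6-array means was -0.04, 0.05 and -0.04 on replicates 1 to 3 of Tel+GW+LPS, and 0.01, -0.01 and 0.04 on those of Tel+LPS. On replicate 3 of Tel+LPS, kinetochore genes deviated by a median of 0.19, while Plk1, Aurka, Cdc20, Ube2c, Kif20a and Ect2 were at their lowest there. These genes were picked out after their values were seen, and what sets the arrays apart was not tested.

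**Figure D3:**
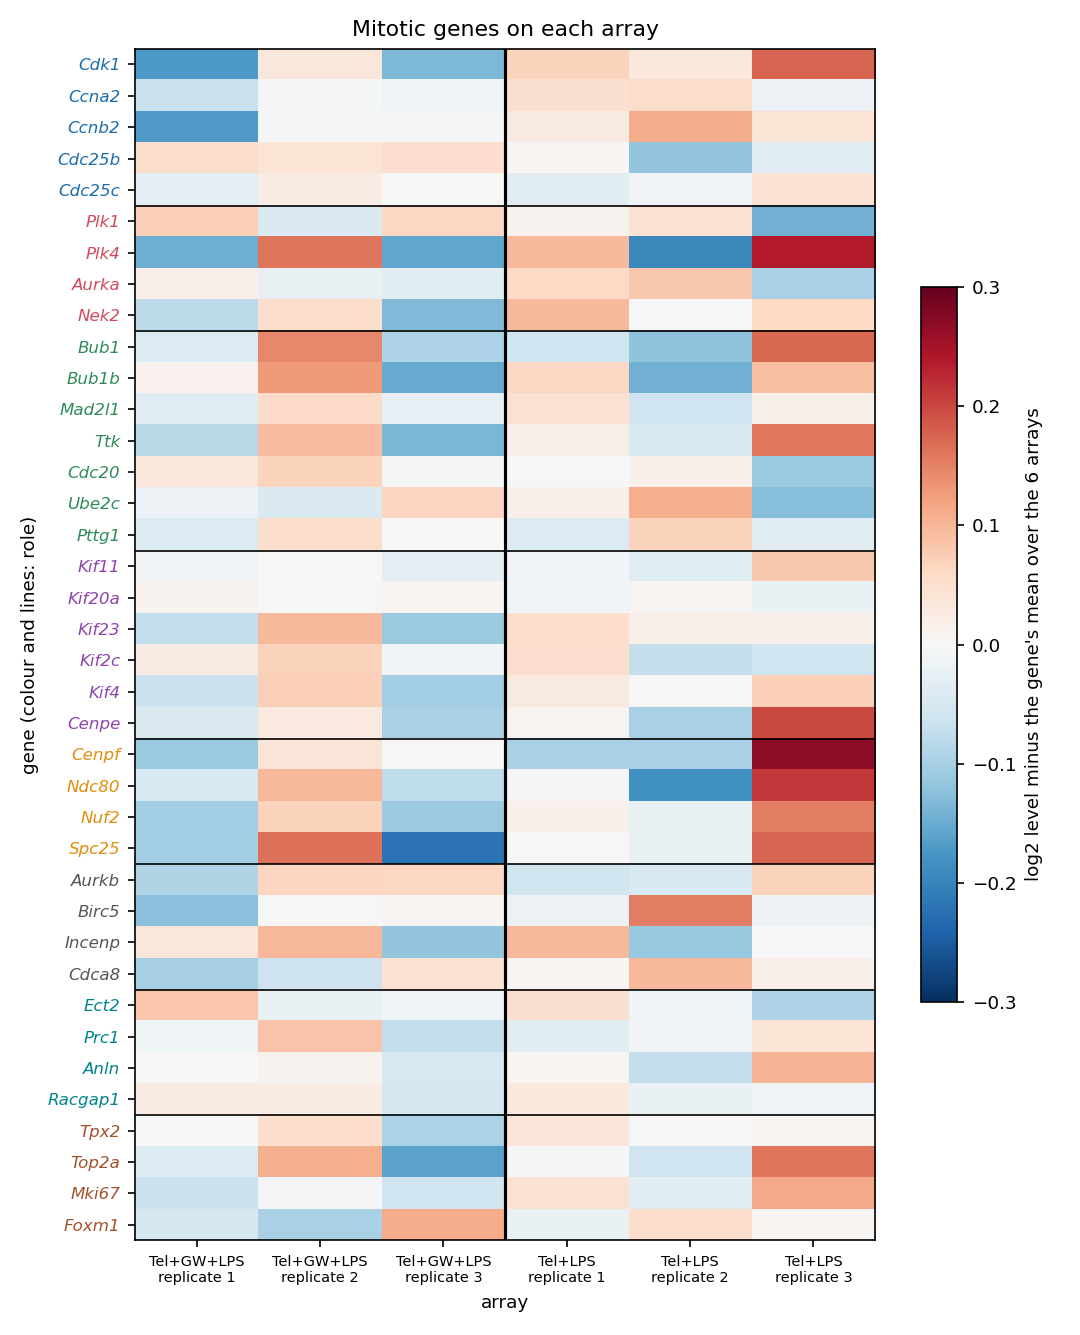
Level of each mitotic gene on each array as the log2 level minus the gene's mean over the 6 arrays (colour), Tel+GW+LPS on the left and Tel+LPS on the right. Rows are grouped by role, and replicate 2 of Tel+GW+LPS and replicate 3 of Tel+LPS are the warmest columns, with Plk1, Ube2c and Cdc20 coldest on the last.

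Leaving out single arrays changed the median of the list. The median difference of the 38 members was -0.06 without replicate 2 of Tel+GW+LPS, -0.00018 without replicate 3 of Tel+LPS and -0.03 without both, against -0.02 with all 6 arrays. Over all genes tested the median was -0.02 without replicate 2 of Tel+GW+LPS, -0.01 without replicate 3 of Tel+LPS and -0.02 without both. Of the arrays that did not stand apart, replicate 3 of Tel+GW+LPS and replicate 2 of Tel+LPS also changed the members' median. It was -0.01 and -0.05 when they were left out. With 1 or both arrays left out no member passed, and Cdk1 kept a negative difference in each of these fits. With array weights in limma, Cdk1 and Nek2 had an unadjusted p under 0.05, as did 2013 of all 12212 genes tested. The smallest adjusted p of a member in that fit was 0.181. With quantile normalization repeated, no member had an unadjusted p under 0.05.

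No gene of 5 further cell cycle lists passed the threshold. Of 63 further spindle, kinetochore and cytokinesis genes, 59 were tested, with 42 negative and a median of -0.05. That median was -0.09 without replicate 2 of Tel+GW+LPS, -0.02 without its replicate 1 and likewise without its replicate 3, and 0.0014, with the sign lost, without replicate 3 of Tel+LPS. The smallest p were those of Ska2, a kinetochore subunit, at -0.21 ± 0.10, and Kifc1, a minus-end kinesin, at 0.12 ± 0.06. Of 32 subunits and regulators of the APC/C, condensin and cohesin, 31 were tested, with a median of -0.05. It was -0.02 without replicate 3 of Tel+GW+LPS, -0.08 without replicate 2 of Tel+LPS, -0.02 without replicate 3 of Tel+LPS and -0.02 with quantile normalization repeated. The APC/C subunit genes Cdc26 and Anapc10 differed by -0.26 ± 0.09 and -0.18 ± 0.07. In the 21 tested genes of DREAM, MuvB, B-MYB, E2F and NF-Y the median was -0.04, with the MuvB subunit gene Lin9 at -0.19 ± 0.06 and the NF-Y subunit gene Nfya at -0.15 ± 0.07. Adjusted p in limma was 0.979 for Cdc26, 0.949 for Lin9 and 0.994 for the other 4.

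Genes that control entry into mitosis and the response to DNA damage had a median of -0.09 and a mean of -0.03 over 21 tested, with differences on both sides. Chek2, the DNA damage checkpoint kinase, had the largest upward difference of the list, at 8.66 ± 0.09 with GW9662 and 8.39 ± 0.05 without (log2 level, SD, n = 3 each). This difference of 0.26 ± 0.07 had an adjusted p of 0.823 in limma. Btg2, an antiproliferative gene that p53 induces, lay at 7.53 ± 0.06 with GW9662 and 7.74 ± 0.05 without, a difference of -0.21 ± 0.07 (adjusted p = 0.949). The median of this list was -0.04 without replicate 3 of Tel+GW+LPS, -0.06 without its replicate 1 and -0.02 without replicate 3 of Tel+LPS.

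Genes of the preceding cell cycle phases can be set beside the mitotic genes. Of 42 G1/S and replication genes, 39 were tested, with 26 negative, a median of -0.03 and 0 called, and the G1 genes Cdk6 and Ccnd1 differed by -0.21 ± 0.08 and -0.17 ± 0.07 (adjusted p = 0.994 in limma for both). Replication-dependent histone genes, whose messages are made in S phase, had a median of -0.24 over 20 tested, with 18 negative. Of these 20, H4c1 and H1f3 were called lower. Over all genes tested 5 (0.0409%) were called, and these 2 were the only ones lower. With 1 array left out, 0 to 2 of all genes tested were called, so neither kept its call in every such fit. Histone probe sets can match near-identical copies. The difference between the mitotic and the histone genes was not tested, since the lists were chosen with these values known.

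**Figure D4:**
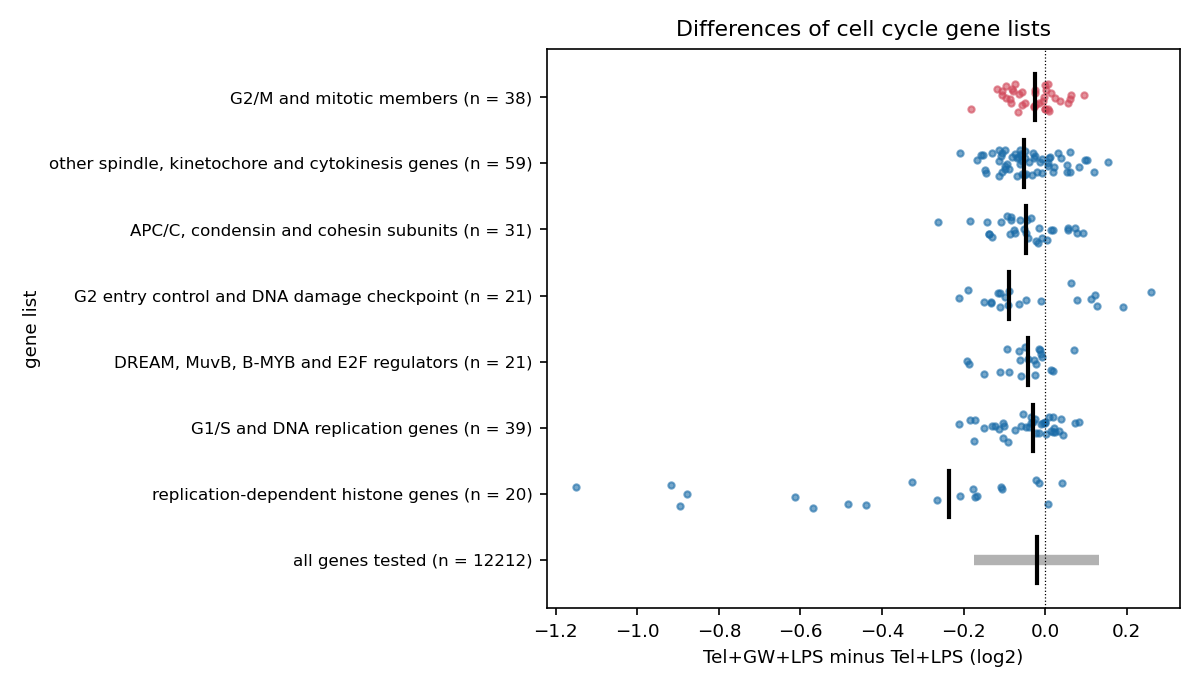
Differences of the genes of each list on the log2 scale, Tel+GW+LPS minus Tel+LPS (points, 1 per gene, with the list's median as a bar), with the middle 90% of all genes tested in grey. The mitotic members lie between -0.18 and 0.10, while histone genes reach -1.15.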

How the data were processed

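Total RNA of 6 samples was hybridised to 6 arrays. The deposited values are log2 levels that the authors summarised by RMA. The submitters' processing notes name Expression Console for this step, and per the file headers Affymetrix Power Tools 1.4.1.46 did the background correction, quantile normalization over the 6 arrays and median polish. Such values hide a change that most transcripts share. The headers name a second-generation mouse gene array, the labelling protocol its predecessor.

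The table with 5 decimals was used, and a second with 2 decimals was an alternative. Of 41345 probe sets, 23521 carried 1 gene symbol in the platform annotation and represented 22180 genes by their brightest row. Genes at or above the median level of all probe sets (6.15) were tested with limma 3.58.1 in R 4.3.3, with a term for group alone, Benjamini-Hochberg adjustment over 12212 genes and a threshold of 0.05. The code was tested on simulated data. Adjusted p-values are from this fit unless an alternative is named.

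Members, lists and alternatives were chosen with earlier results of these data known. The rule for naming genes gave every array's value for the 2 members with the smallest p in each of 8 roles, plus Cdk1, Ccnb1, Ccnb2, Plk1, Aurka, Aurkb, Birc5, Top2a, Mki67 and Foxm1, and named 2 genes of each other list. The number of arrays limits the precision. Promoters are RefSeq's on GRCm38.p6, searched with Python 3.11.15. No coordinates of probe sets are given.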

Additional observations from a re-analysis of the deposited data

How the results depend on the processing

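No mitotic gene passed under any of the 17 alternatives, and the smallest adjusted p of a member over them was 0.181, with array weights. The number of all genes past the threshold, 5 as reported, was 10 with arrays centred on their median or quantile normalization repeated, 12 with eBayes trend and robust, 49 with array weights, 1 with no level filter, and 0 with no moderation or without both arrays that stood apart. It ranged from 0 to 2 with 1 array left out. With the replicate number as a block it was 0 (379 genes at an unadjusted p under 0.05). Deviations of same-numbered samples correlated at 0.29, -0.45 and -0.12, so the numbers were not taken to pair the samples. No member was called with the replicate block or without it, so there was no call for the block to change. The median of the DREAM, MuvB, B-MYB and E2F regulators, -0.0411 as reported, was -0.0122 with quantile normalization repeated and -0.053 to -0.011 with 1 array left out, and that of the G2 entry and checkpoint genes was -0.12 to -0.0153 with 1 array left out. With 1 array left out, the median was -0.0625 to -0.000183 for the mitotic members, -0.0906 to 0.00142 for the further spindle genes, -0.0838 to -0.0189 for the APC/C, condensin and cohesin subunits, -0.0546 to -0.0258 for the G1/S genes and -0.31 to -0.21 for the histone genes. Alternatives for the medians of lists other than the members were chosen after seeing the data. Of the 38 members, 16 kept their sign in every alternative and 22 did not. In what follows, Aldh1l1, Aldoc, Cnp, Col3a1, Acta2 and Rbfox3 are markers of other cell types, not members. The opposite sign was taken with arrays centred on their median by Cdc25c 0.0137, Bub1b 0.00847, Mad2l1 0.0119, Ndc80 0.000308, Prc1 0.0145 and Racgap1 0.0137, and with quantile normalization repeated by Cdc25c 0.0183, Aurka 0.00619, Bub1b 0.0209, Mad2l1 0.0282, Kif11 0.00399, Ndc80 0.0159, Prc1 0.0322, Anln 0.00913 and Racgap1 0.0283. With array weights it was taken by Cdc25c 0.0178, Ube2c -0.00691, Kif2c -0.0145, Cenpf 0.0331, Incenp -0.0841, Ect2 -0.00229, Prc1 0.00705, Foxm1 0.0132, Aldh1l1 -0.0306 and Aldoc -0.00229. Without both arrays apart it was taken by Cdc25c 0.00902, Ube2c -0.0388, Pttg1 -0.0337, Kif11 0.00495, Cenpf 0.0427, Ndc80 0.0344, Incenp -0.0341, Anln 0.0101, Foxm1 0.0131 and Cnp -0.0128, and in the second deposited table with 2 decimals by Cdc25c 0.00333. With 1 array left out, the genes that took the opposite sign at least once ranged as follows: Cdc25c from -0.0172 to 0.0207, Mad2l1 from -0.0334 to 0.0196, Ndc80 from -0.11 to 0.0876, Incenp from -0.0435 to 0.0719, Prc1 from -0.0431 to 0.036, Col3a1 from -0.0364 to 0.20, Acta2 from -0.0393 to 0.15, Bub1 from -0.0642 to 0.0934, Pttg1 from -0.0179 to 0.0417, Aurkb from -0.00198 to 0.0749, Foxm1 from -0.0876 to 0.0169, Bub1b from -0.0797 to 0.0676, Ube2c from -0.0611 to 0.058, Racgap1 from -0.0148 to 0.0239, Tpx2 from -0.0608 to 0.0136, Top2a from -0.13 to 0.000883, Rbfox3 from -0.25 to 0.15, Aurka from -0.0831 to 0.00602, Plk4 from -0.21 to 0.000522, Kif11 from -0.0476 to 0.0111, Cenpe from -0.14 to 0.0076, Cenpf from -0.11 to 0.0738, Ect2 from -0.000667 to 0.0692 and Anln from -0.0657 to 0.021. Members that kept their sign with 1 array left out also varied: Cdk1 from -0.24 to -0.14, Ccna2 from -0.0807 to -0.0382, Ccnb2 from -0.15 to -0.0627, Cdc25b from 0.0606 to 0.12, Plk1 from 0.00382 to 0.0971, Nek2 from -0.16 to -0.0651, Ttk from -0.15 to -0.0275, Cdc20 from 0.0231 to 0.0863, Kif20a from 0.00732 to 0.0206, Kif23 from -0.12 to -0.0167, Kif2c from 0.0327 to 0.0943, Kif4 from -0.12 to -0.0294, Nuf2 from -0.15 to -0.0438, Spc25 from -0.21 to -0.0207, Birc5 from -0.11 to -0.0244, Cdca8 from -0.12 to -0.0498 and Mki67 from -0.12 to -0.0479. The cause of these changes was not tested. The 4 residual degrees of freedom limit what the arrays can show.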

Other observations

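Most markers of other cell types were below the level filter in these BV2 samples or had no row, and none that was tested passed the threshold. Above the level filter lay 3 of 7 astrocyte, 2 of 7 neuron, 3 of 6 oligodendrocyte, 3 of 7 fibroblast and 2 of 7 lymphocyte markers. Below it lay, among others, Aqp4, Slc1a3, Map2, Snap25, Mag, Dcn, Lum, Cd3e and Ms4a1, and above it Aldh1l1, Aldoc, Rbfox3, Syn1, Mbp, Cnp, Col3a1, Acta2, Ighm and Nkg7. The markers named from above the filter, those with the smallest p of each list, differed by 0.06 (Aldh1l1) and 0.03 (Aldoc), -0.12 (Syn1) and -0.09 (Rbfox3), -0.10 (Mbp) and 0.06 (Cnp), 0.07 (Col3a1) and 0.05 (Acta2), and -0.34 (Ighm) and -0.12 (Nkg7). The microglia markers C1qb and Aif1 differed by -0.29 and -0.20, where the 13 tested markers of that list had a median of -0.05 with 10 negative. The housekeeping genes Hprt and Tbp differed by -0.18 and -0.08, where the 9 tested of that list had a median of -0.0044 with 6 negative. Only Aif1 and Tbp of these were lower on all 3 arrays with GW9662.

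Across all genes tested with a matched promoter, 360 had TTTGAA within 50 bases of the start, 20 of them members. Their median difference was -0.0266, with 242 negative. The other 9255 had a median of -0.0178, with 5425 negative. Neither rescaling was applied to this split. These promoters are matched by symbol only, and no test was made of the difference.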
